A study of Mus musculus with 54 samples.

Results

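Of 52646 mouse CTCF sites, 1896 lay in protein-coding exon sequence, away from gene starts, and these coding-exon sites are described here. Overlapping peaks of 22 CTCF peak lists were merged into sites, and a site was kept when at least 2 libraries called it. It counted as a coding-exon site when its median summit, the base of highest signal, fell in a coding interval (CDS) of a protein-coding gene and over 1000 bp from the start of every protein-coding gene. The choice used peak positions and annotation only, and no comparison between groups. The 1896 sites fell in 1736 genes. Of these genes, 1594 held 1 site, 127 held 2, 12 held 3 and 3 held 4. Another 698 coding-exon positions were called in 1 library only, and 1420 sites in a CDS lay within 1000 bp of a gene start, and neither set was kept. The sites nearest to this limit lay 1001, 1003 and 1004 bp from a gene start (kept) and 999, 998 and 998 bp from one (left out). When the starts of all annotated transcripts of coding genes were used in place of gene starts, 583 of the 1896 sites came within 1000 bp of a start.

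Chromatin immunoprecipitation and sequencing was done in the mouse embryonic stem cell (ESC) line E14 and in neural progenitor cells (NPCs) obtained from it after 2 days of neural differentiation. Rescue lines had the following changes: an AID2 degron was on both endogenous CTCF alleles, the ligase adaptor OsTir1(F74G) was at Rosa26, and a doxycycline-inducible Flag-Halo-CTCF, either wild type (WT) or without zinc finger 1 (ΔZF1), was at Tigre. The lines also carried an Hb9-mCherry reporter, and each rescue was 1 clone, so the clone and the genotype cannot be told apart. All rescue cells, WT included, received 1 µM 5-Ph-IAA, which removes the degron-tagged protein, and 1 µg/ml doxycycline for 24 h. CTCF was measured in each of these 4 rescue groups (both genotypes, as ESCs and as NPCs) with 4 libraries per group. It was also measured in 2 libraries each of NPCs from parental E14 cells and from lines with a homozygous polyadenylation cassette after the first coding exon of Podxl (PodxlpA) or Grb10 (Grb10pA). The cohesin subunit Smc3 had 2 libraries in each of these 7 groups, and Rad21, another subunit, had 2 in each of the 4 rescue groups. The paper calls the replicates biological. Nothing in the labels says that they were separate cultures, so p-values measure the spread between these libraries. Peak lists carry no expression, so the cell types were not checked against marker genes, and a peak that fails the caller's threshold cannot be told apart from an empty site.

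CTCF is a zinc finger protein that binds DNA at an asymmetric core motif through its central fingers, and its outer zinc finger 1 binds RNA. Cohesin extrudes chromatin loops and halts where it meets CTCF in the right orientation. Most CTCF sites lie in introns and between genes, and a site in a coding exon shares its bases with the reading frame, so the same letters are read as protein sequence and as a binding site.

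The sequences below show what CTCF met at coding exons, on the motif's strand and 5′ to 3′, with 20 bases on each side. They were read from GRCm38 (mm10), and capitals mark the best match to the CTCF core motif within 50 bp of the summit. The first 5 belong to the sites with the highest fold enrichment percentile among those called in all 22 libraries that also held a motif and lay over 1000 bp from every transcript start of a coding gene, the next 4 to sites lost in the ΔZF1 mutant, and the last 2 to sites that differed by cell type.
Gdf15, chr8:70629874-70629927, minus strand: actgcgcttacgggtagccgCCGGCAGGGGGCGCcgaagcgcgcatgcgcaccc
1500009C09Rik, chr15:82259687-82259740, minus strand: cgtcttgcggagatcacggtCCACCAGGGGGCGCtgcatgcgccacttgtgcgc
Adgra2, chr8:27121046-27121099, plus strand: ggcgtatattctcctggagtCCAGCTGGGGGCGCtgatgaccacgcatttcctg
Spi1, chr2:91115236-91115289, plus strand: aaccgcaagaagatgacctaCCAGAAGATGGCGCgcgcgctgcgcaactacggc
Zfp219, chr14:52008976-52009029, plus strand: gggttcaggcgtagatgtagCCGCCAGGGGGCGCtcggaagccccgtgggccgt
Numa1, chr7:101998675-101998728, plus strand: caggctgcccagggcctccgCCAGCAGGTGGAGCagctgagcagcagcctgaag
Tmem132a, chr19:10860133-10860186, plus strand: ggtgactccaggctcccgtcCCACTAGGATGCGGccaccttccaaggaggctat
Frem2, chr3:53525779-53525832, plus strand: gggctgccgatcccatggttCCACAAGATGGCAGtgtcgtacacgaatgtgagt
Tenm2, chr11:36221393-36221446, plus strand: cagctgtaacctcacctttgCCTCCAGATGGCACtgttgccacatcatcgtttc
Drd4, chr7:141293938-141293991, minus strand: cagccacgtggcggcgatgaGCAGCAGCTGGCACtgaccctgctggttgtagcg
Lpar1, chr4:58437439-58437492, plus strand: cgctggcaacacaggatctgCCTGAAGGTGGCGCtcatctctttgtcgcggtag
The match was perfect in 1500009C09Rik, had 1 mismatch in Gdf15, Adgra2, Spi1, Zfp219, Numa1, Frem2 and Tenm2, and had 2 in Tmem132a, Drd4 and Lpar1. In Gdf15, Adgra2, Spi1 and Numa1 the motif and the gene were on the same strand, and in the other 7 the motif ran against the gene. All 11 motifs lay wholly in the coding exon.

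Coding exons held more CTCF sites per length than introns did, but the sites held a motif less often. There were 57.7 sites per Mb of coding exon over 1 kb from gene starts, against 37.1 in other exon sequence, 21.4 in introns, 13.1 outside coding genes and 193 within 1 kb of gene starts. A core motif with at most 2 mismatches, on either strand and within 50 bp of the summit, was found at 934 of the 1896 coding-exon sites (49.3%). The share was 64.9% in other exons, 76.1% in introns and 77.9% outside genes, and it was 31.3% at promoters. Windows of the same size 1000 bp from the coding-exon sites held it in 3.43% of cases. The match is a description and does not show which bases CTCF touched.

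Sites with and without a motif had different sequence content and positions. The number of libraries, which the choice of members used through its minimum of 2, had a median of 11 at motif-bearing coding-exon sites and of 6 at motif-free ones. Median GC content was 59.7% in the former and 64.7% in the latter, and the observed over expected ratio of CpG was 0.431 and 0.672. Of the motif-free sites, 32.7% were in the first coding exon of their transcript, against 16.7% of motif-bearing sites. Among all coding bases over 1 kb from gene starts, 13.5% were in a first coding exon and 23.2% in a last one. The coding-exon sites as a whole fell in a last coding exon in 615 cases (32.4%) and in a first one in 471 cases (24.8%). Their exons were long, with a median of 301 bp, while the median coding base lay in an exon of 186 bp.

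By closeness of the match, and again as a description, coding-exon sites with a perfect motif (89 sites) were called in a median of 17 libraries, those with 1 mismatch (338) in 13.5 and those with 2 (507) in 9. The corresponding medians at other distal sites, that is, all sites in introns, other exons and outside genes, were 14, 10 and 6. In all, 112 coding-exon sites were called in all 22 libraries (5.91%), among 1883 such sites in the whole set (3.58%).

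Scanned from the genome side, a motif in a coding exon was at a CTCF site about as often as one in an intron. Of 117 perfect matches in coding exons, 91 (77.8%) were at a site, as were 79.1% of 2506 in introns and 65.5% of 3875 outside coding genes. With 1 mismatch the shares were 25.3%, 27.7% and 19.7%, and with 2 they were 4.36%, 4.44% and 3.23%. The order of annotation classes was therefore similar at each number of mismatches, with promoters highest at 86%, 43% and 11.9%. The plot of motif matches by annotation shows these shares.

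**Figure D1:**
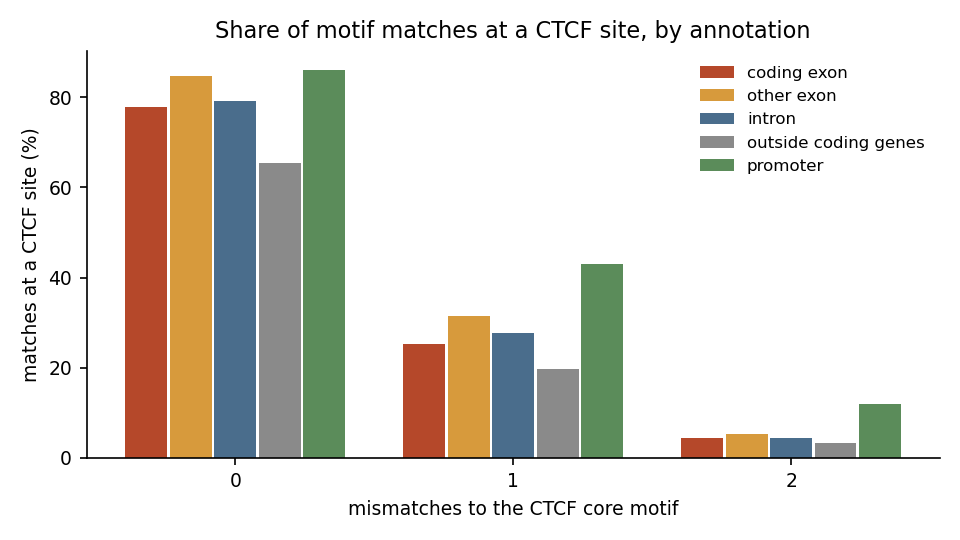
Percentage of genome-wide CTCF core motif matches that lay at a CTCF site (vertical axis), for matches with 0, 1 or 2 mismatches (horizontal axis) and by annotation class (colours). At 0 mismatches the coding-exon bar is at 77.8% and the intron bar at 79.1%.

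The motif in coding exons had a preferred place relative to the codon, and this was a property of all such matches and not of the bound ones. Among 13727 matches with at most 2 mismatches in coding exons, the first base on the coding strand fell at codon position 1 in 30.3%, position 2 in 20.2% and position 3 in 49.5%. Among the 937 of them at a CTCF site the shares were 28.6%, 20.2% and 51.2%. The share at a site was 6.44%, 6.83% and 7.06% for the 3 positions. Matches that ran against the gene were at a site in 7.46% of 7385 cases, and matches along the gene in 6.09% of 6342. With at most 1 mismatch these shares were 30.1% and 28.3%.

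The number of coding-exon sites called varied widely between libraries of the same group. In WT ESCs replicates 1 to 4 called 1330, 760, 643 and 678 of the 1896 sites, and in ΔZF1 ESCs 1545, 608, 531 and 1056. WT NPCs called 1093, 966, 786 and 993, and ΔZF1 NPCs called 853, 427, 212 and 1496. The groups overlapped in every comparison. E14 NPCs called 536 and 760, PodxlpA NPCs 510 and 776 (replicates 2 and 1) and Grb10pA NPCs 942 and 784.

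The lists ranged from 5755 to 45941 peaks, so calling was expressed relative to other distal sites, as the log2 of the odds that a coding-exon site was called over the odds that one of the 42759 other distal sites was. In WT ESCs this log2 odds ratio was -0.89, -0.13, -0.74 and 1.36 in replicates 1 to 4. In ΔZF1 ESCs it was 0.26, -0.02, -0.12 and 1.99. The values in WT NPCs were 0.23, 0.84, -0.38 and 2.08, and in ΔZF1 NPCs they were 2.08, 0.37, 0.04 and 2.16. Replicate 4 was the highest of each group. Replicate 4 of the 4 groups and replicate 1 of the ΔZF1 NPCs reached 1.36 to 2.16, and the other 17 libraries -1.51 to 0.84. These 5 libraries also had 24.2% to 40.1% of their sites within 1 kb of a gene start, against 7.17% to 18.6% in the other 17, and the differences below are also given without replicate 4. The labels do not say why, and peak names inside the replicate 4 lists carry the replicate number 2.

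**Figure D2:**
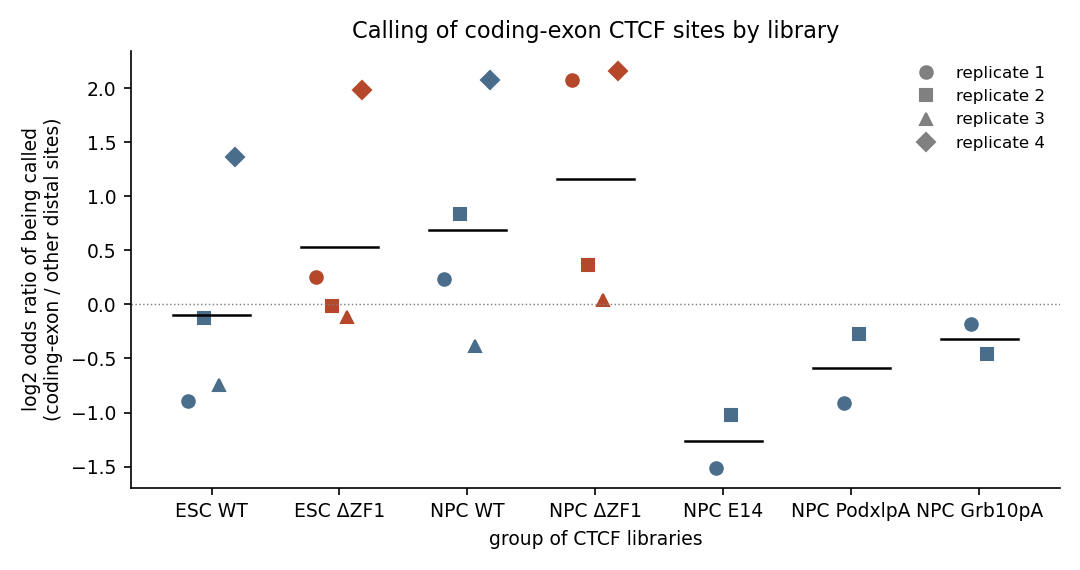
Log2 odds ratio of being called, coding-exon over other distal sites (vertical axis), for each CTCF library by group (horizontal axis). Symbols stand for replicate numbers, the bar is the group mean, and replicate 4 lies between 1.36 and 2.16 in each rescue group.

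Relative to other distal sites, coding-exon sites were not called at detectably different odds in the mutant by tests that left the libraries unpaired. The mean log2 odds ratio in ESCs was -0.10 ± 1.03 (SD, n = 4) for WT and 0.53 ± 0.99 (n = 4) for ΔZF1, a difference of 0.63 (two-sided exact permutation p = 0.429, adjusted 0.571 over 8 tests). It was higher in the mutant in 4 of 4 same-numbered pairs. Within replicates 1 and 4 the difference was 0.89, and within replicates 2 and 3 it was 0.37. It was 0.63 in replicates 1 to 3 only (exact permutation p = 0.1, the smallest that 3 against 3 allows), 0.12 with equal peak numbers and 0.30 when stratified by fold enrichment. Without WT replicate 4 it was 1.115, and without ΔZF1 replicate 4 it was 0.14. In NPCs the means were 0.69 ± 1.05 and 1.16 ± 1.11 (n = 4 each), a difference of 0.47 (exact permutation p = 0.6, adjusted 0.686), higher in 3 of 4 pairs. Within replicates 1 and 4 it was 0.96, and within replicates 2 and 3 it was -0.02, so the direction did not hold there. It was 0.60 in replicates 1 to 3 only, a set that keeps ΔZF1 replicate 1 with its value of 2.08, and 0.27 with equal peak numbers. It was 0.11 without WT replicate 3 and 0.93 without WT replicate 4, and it was 0.17 and 0.14 without ΔZF1 replicate 1 or 4. The ΔZF1 effect in NPCs less that in ESCs was -0.16 (exact permutation within cell types p = 0.887, adjusted 0.887). An exact test of 4 against 4 can reach 0.0286, and the spread between replicates, of about 1 log2 unit, limited these unpaired tests. With the ESC libraries taken as same-numbered pairs, the exact permutation p was 0.125, the smallest that 4 pairs allow. A paired test thus could not reach 0.05 here.

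Cell type gave a like picture. The log2 odds ratio in WT NPCs exceeded that in WT ESCs by 0.79 (exact permutation p = 0.343, adjusted 0.549), by 0.92 within replicates 1 and 4 and by 0.66 within replicates 2 and 3. In the mutant it was higher in NPCs by 0.63 (exact permutation p = 0.257, adjusted 0.514), with 1.00 and 0.27 within the same 2 sets of replicates. With equal peak numbers the differences were 0.31 in WT and 0.49 in the mutant, and in replicates 1 to 3 only they were 0.82 and 0.79. The mutant value for replicates 1 to 3 still includes ΔZF1 NPC replicate 1. The WT difference was 1.28 without ESC replicate 4 and 0.33 without NPC replicate 4. The mutant difference was 1.12 without ESC replicate 4, 0.33 without NPC replicate 1 and 0.30 without NPC replicate 4. Both differences were positive in 4 of 4 same-numbered pairs. The lowest values of all were in E14 NPCs, at -1.51 and -1.02, followed by PodxlpA (-0.91 and -0.27) and Grb10pA (-0.18 and -0.45). These NPCs carry no rescue transgene and were set beside the rescue NPCs without a test.

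The mix of motif-bearing and motif-free sites differed between libraries. In E14 NPC replicate 1, 43.8% of motif-bearing and 13.2% of motif-free coding-exon sites were called. In ΔZF1 NPC replicate 4 the shares were 73.6% and 84.1%. The share of called coding-exon sites that held a motif lay between 45.3% and 76.3% over the 22 libraries, and between 71.3% and 87.3% at other distal sites.

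When called, the peaks ranked differently by motif. The median fold enrichment of coding-exon peaks, as a percentile within the library, differed by -2.19 points from that of other distal peaks on average over 22 libraries (permutation of signs p = 0.0455, adjusted 0.121, lower in 15 of 22). Among motif-bearing sites the difference was 4.51 points (permutation of signs p = 0.00036, higher in 19 of 22). Among motif-free sites it was -7.12 points (permutation of signs p = 0.00016, higher in 4 of 22). The split by motif was chosen after the motif shares were seen, and its p-values are not adjusted. All libraries scored the same set of sites, so the p-values in this paragraph measure constancy over libraries only.

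Coding-exon sites present in at least 3 of 4 WT libraries were retained in the mutant more often than other distal sites in ESCs. By the same criterion the difference in NPCs was smaller and rested on single libraries. A site was reproducible when at least 3 of the 4 libraries of a group called it, and retained when it was reproducible in WT and in ΔZF1. In ESCs 519 of 658 coding-exon sites were retained, which is 78.9% (95% Wilson interval 75.6 to 81.8), while 64.3% of all reproducible sites were. The share at other distal sites was 60.9% (60.1 to 61.7). It was 81.4% at promoters and 71.8% in other exons, so a high share was not particular to coding exons. In NPCs 329 of 794 were retained, which is 41.4% (38.1 to 44.9), while 36.7% of all sites and 34.4% (33.5 to 35.2) of other distal sites were. Promoter sites were retained at 43.9% and other exon sites at 38.2% in NPCs. Intervals cover counting error only, and the shares differed between libraries. Among the 658 ESC sites, ΔZF1 replicates 1 to 4 called 98.6%, 74.8%, 64.7% and 84.5%, against 96.6%, 73.8%, 55.1% and 51.4% of the other distal sites. Among the 794 NPC sites they called 71.4%, 48.6%, 23.9% and 94.3%, against 41.3%, 50.6%, 29.3% and 81.1%. Coding-exon sites were thus ahead in 4 of 4 mutant ESC libraries and in 2 of 4 mutant NPC libraries. Leaving out a library also made the criterion stricter, from 3 of 4 to 3 of 3 in that group, so the change of library and of criterion cannot be told apart. Without ΔZF1 replicate 1 the retained share in ESCs was 51.4% against 33% of other distal sites, and leaving out any other ESC library also kept coding-exon sites ahead. In NPCs it was 21% against 21.3% without ΔZF1 replicate 1, 20.2% against 16.5% without ΔZF1 replicate 2 and 18.4% against 14.5% without ΔZF1 replicate 4. Without WT NPC replicate 3 it was 46.7% against 50.2%. With equal peak numbers the retained share was 81.4% against 68.5% in ESCs and 71.7% against 55.4% in NPCs. With 2 of 4 libraries required it was 86% against 69.8% in ESCs and 73.5% against 47.6% in NPCs. The gap was not smaller in NPCs in these 2 settings. Nor was it in replicates 1 and 4 alone, with 91.7% against 75.6% in ESCs and 79.2% against 54.7% in NPCs. In replicates 1 to 3 only, the shares were 75.1% against 66.6% in ESCs and 36.3% against 24.7% in NPCs. In replicates 2 and 3 alone the NPC gap was smaller, with 60.9% against 46.8% in ESCs and 25% against 22.6% in NPCs.

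The excess was present at each level of WT enrichment in ESCs, and in NPCs it was beyond counting error in the top bin only. It was not present in each bin of GC content. Split into 4 equal bins of WT fold enrichment, from low to high, coding-exon sites in ESCs were retained at 59.2%, 74.1%, 88.7% and 99.5%, and other distal sites at 31%, 50.2%, 69.8% and 92.3%. In NPCs the shares were 8.8%, 25.5%, 44.1% and 86.7% against 7.49%, 19.9%, 38% and 72%. The Wilson intervals of the 2 classes overlapped in all NPC bins but the top one, with 36.7 to 51.8 against 36.3 to 39.8 in bin 3. In the top bin they were 81.7 to 90.5 against 70.4 to 73.6. Most coding-exon sites were in the top of 4 GC bins, 530 of 658 in ESCs and 645 of 794 in NPCs. There they were retained at 83.8% (80.4 to 86.7) in ESCs, against 81.9% (80.6 to 83.2) of other distal sites, and at 44.8% (41 to 48.7) in NPCs, against 50.8% (48.8 to 52.7). In the GC bin below it the shares were 63% against 66.3% in ESCs and 29.5% against 39.6% in NPCs. The 2 lowest bins held 19 and 17 coding-exon sites in ESCs, retained at 47.4% and 47.1% against 43.3% and 55%, and 14 and 30 in NPCs, at 21.4% and 20% against 21% and 29.5%. GC content was looked at after the retained shares were known.

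**Figure D3:**
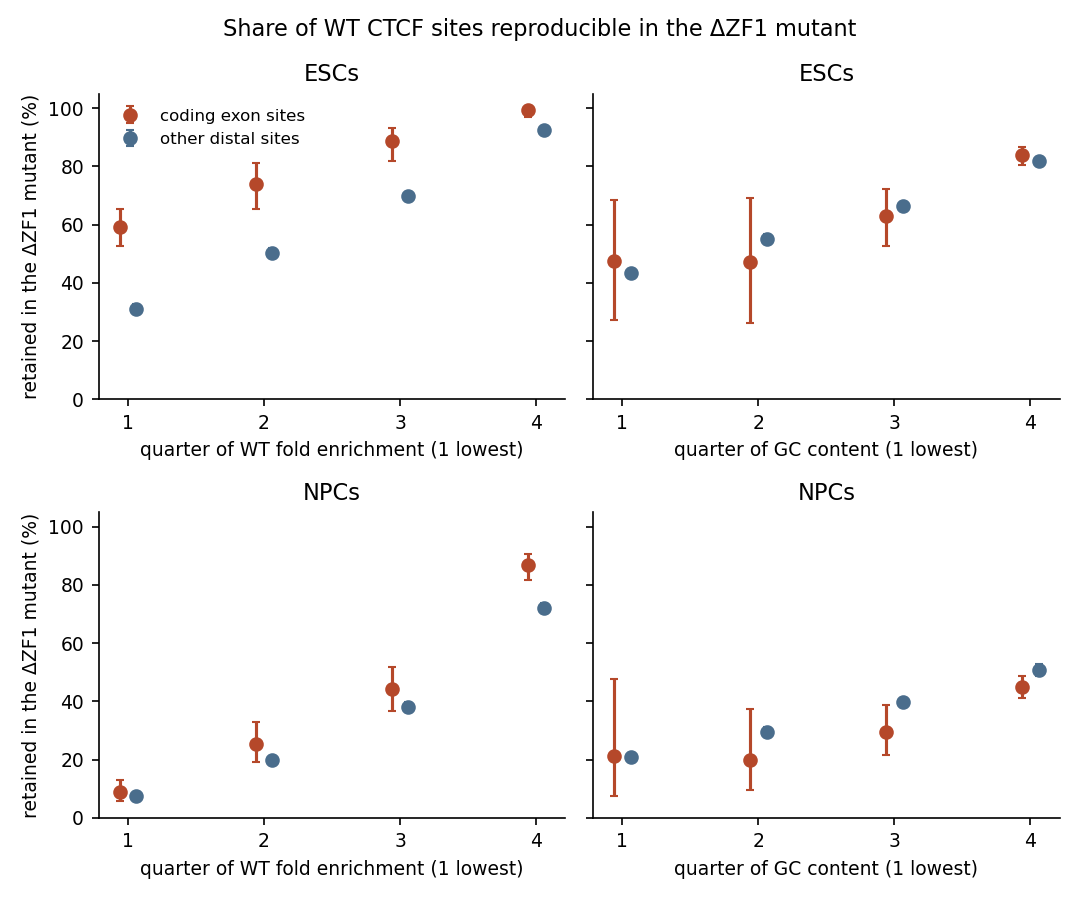
Retained percentage, that is, the part of the WT-reproducible sites found again in at least 3 ΔZF1 libraries (vertical axis, with 95% Wilson intervals), by bin of WT fold enrichment (left) and of GC content (right), in ESCs (top) and NPCs (bottom). Coding-exon sites lie above other distal sites in each bin of enrichment and not in each bin of GC content. In NPCs the intervals overlap in all enrichment bins but the top one.

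A motif went with retention in coding exons. In ESCs 81.6% of 440 motif-bearing and 73.4% of 218 motif-free coding-exon sites were retained, and 61.2% and 58.8% of other distal sites. In NPCs the coding-exon shares were 47.4% of 466 and 32.9% of 328, beside 35.1% and 30.7%. In the other direction, of 344 coding-exon sites reproducible in ΔZF1 NPCs, 329 (95.6%) were reproducible in WT NPCs. Of 642 in ΔZF1 ESCs, 519 (80.8%) were reproducible in WT ESCs. Other distal sites were close to this, with 4143 of 4394 in NPCs and 8849 of 10649 in ESCs.

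Complete losses were rare. A switched site was called in all 4 libraries of a group and in none of the other. In ESCs 3 of the 437 coding-exon sites called in all 4 WT libraries were absent from all 4 mutant libraries (0.686%), with 0.311% of all such sites. In NPCs the count was 9 of 517 (1.74%), with 2.52% of all such sites. No coding-exon site was called in all 4 mutant libraries and no WT library, in either cell type. In the whole set there was 1 such site among 6727 called in all 4 mutant libraries in ESCs. In NPCs there were 0 among 2519, so the absence was not particular to coding exons. Leaving out a library asks for 3 libraries in place of 4 on that side, so such counts can stay or rise but not fall. The ESC losses numbered 7 without WT replicate 4 and 8 without ΔZF1 replicate 1. The NPC losses numbered 14 without WT replicate 3, 25 without WT replicate 4 and 51 without ΔZF1 replicate 4. With equal peak numbers the losses were fewer, 1 in ESCs and 2 in NPCs. Sites called only in mutant ESCs numbered 5 without WT replicate 1, 4 without ΔZF1 replicate 2 and 1 without ΔZF1 replicate 3. Here and below, switched counts under a changed setting stand without the share over all sites. They therefore do not show whether coding-exon sites differed from other sites.

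The site in Numa1, which encodes a protein of the mitotic spindle poles, switched in both cell types. It lay in coding exon 13 of 24, at chr7:101998376-101998994. Its fold enrichment in WT ESCs was 17.9, 8.69, 9.48 and 5.37 in replicates 1 to 4, and in WT NPCs it was 5.81, 15.9, 5.55 and 4.75. As percentiles within a library these spanned 29.2 to 78.5 in WT ESCs and 7.01 to 86.5 in WT NPCs, so the site was weak in part of them. None of the 8 mutant libraries called it, whereas both E14, 1 of the PodxlpA and both Grb10pA libraries did, at 9.47 to 24.8. Of 14 Smc3 libraries 10 had a peak over it, and none of 8 Rad21 libraries did.

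The other ESC losses were in Tmem132a and in Map3k10, a kinase of the JNK pathway. Enrichment at Tmem132a was 8.92, 9.09, 6.64 and 4.75 in WT ESCs, and 1 ΔZF1 NPC library called it at 4.85. Map3k10 had no motif and reached 11.7, 5.42, 7.28 and 6.36 in WT ESCs. In mutant NPCs it was also not called, while 3 of 4 WT NPC libraries called it. The percentiles in WT ESCs were 12.1 to 40.2 at Tmem132a and 5.07 to 54.8 at Map3k10.

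Besides Numa1, the NPC losses were in Dnaaf3, Frem2, Tenm2, Brsk1, Nfkbid, D7Ertd443e, Ccdc59 and Card14. Frem2 encodes an extracellular matrix protein, and its site in coding exon 17 of 24 had WT NPC enrichments of 8.99, 7.85, 9.41 and 4.24. All 4 ΔZF1 ESC libraries called it, at 11.2, 10.5, 6.91 and 4.42, so the loss was seen in mutant NPCs and not in mutant ESCs. Smc3 was over it in 12 of 14 libraries. Tenm2, a teneurin of neuronal cell adhesion, reached 9.72, 9.43, 9.31 and 4.38 in WT NPCs and was called in 2 of 4 ΔZF1 ESC libraries. Nfkbid, an inhibitor of NF-κB, and Card14, a signalling scaffold, were called in 1 WT ESC library and all 4 WT NPC libraries, and in no E14, PodxlpA or Grb10pA library. Their percentiles in WT NPCs were 38.1 to 86.6 at Nfkbid and 12.3 to 20.3 at Card14. Of these 9 sites, Numa1, Frem2 and Tenm2 held a motif. Some of the lost sites lay near the start of an annotated transcript of a coding gene, at 120 bp in D7Ertd443e, 249 bp in Nfkbid and 380 bp in Tmem132a.

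**Figure D4:**
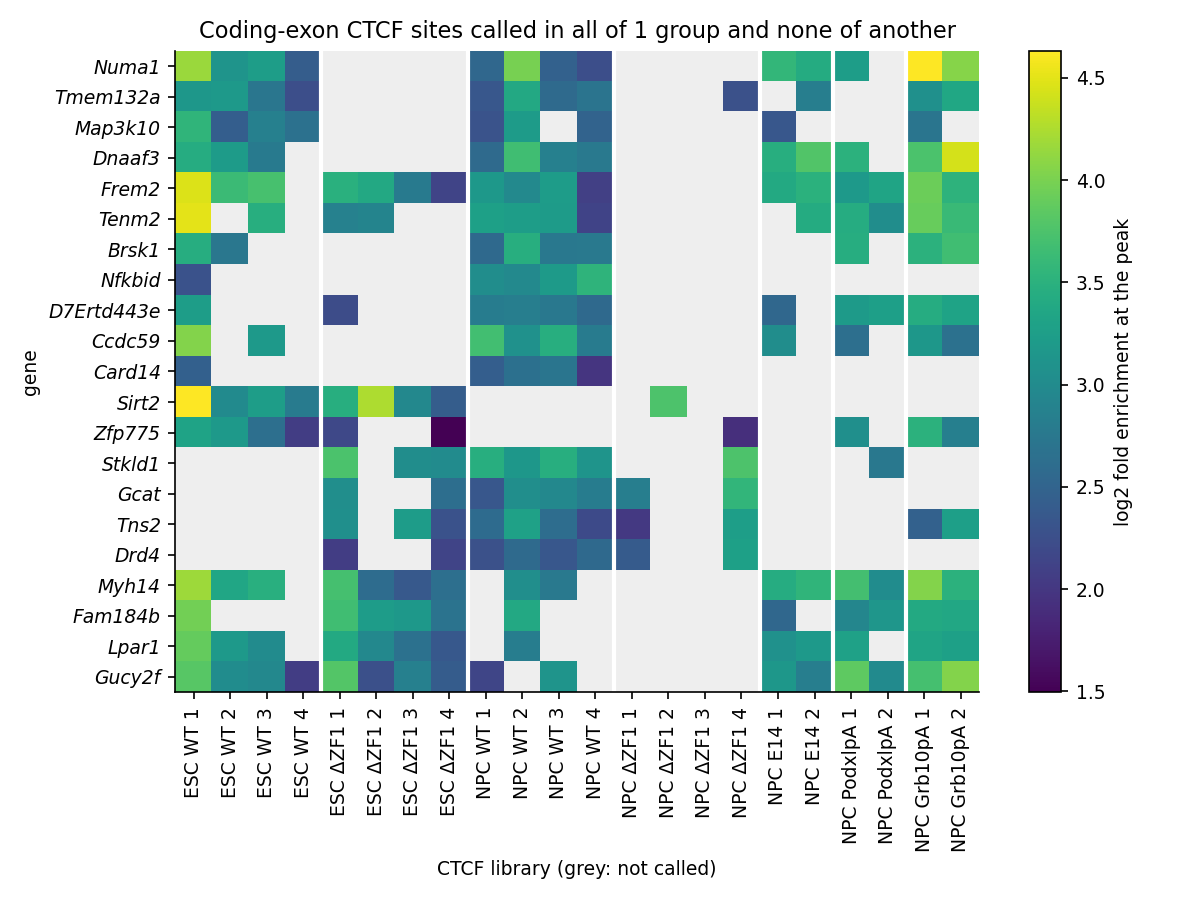
Log2 fold enrichment at the peak (colour) of switched coding-exon sites (rows, by gene) in the 22 CTCF libraries (columns, by group and replicate), with grey where the site was not called. The Numa1 row is coloured in all 8 WT rescue libraries and grey in all 8 ΔZF1 libraries.

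Cell type switches were as few. In the WT rescue, 3 of 437 coding-exon sites were called in all ESC and no NPC libraries (0.686%), with 0.383% of all such sites, and 4 of 517 in all NPC and no ESC libraries (0.774%), with 0.429% of all such sites. The first count was 16 without WT ESC replicate 4 and 7 without WT NPC replicate 3. The second was 7 without WT NPC replicate 2, 20 without WT NPC replicate 3 and 30 without WT ESC replicate 1. The ESC sites included those in Sirt2, an NAD-dependent deacetylase, and Zfp775. Sirt2 had enrichments of 24.6, 7.97, 9.42 and 6.94 in WT ESCs and of 11, 19, 7.78 and 5.36 in ΔZF1 ESCs, and 1 of the 14 NPC libraries called it, a ΔZF1 library at 13.5.

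The NPC sites were in Stkld1, in Gcat, an enzyme of threonine breakdown, in Tns2, a focal adhesion protein, and in Drd4, a dopamine receptor. Enrichment at Drd4 was 4.83, 5.98, 5.11 and 5.91 in WT NPCs. None of the 4 was called in E14 NPCs. The sites in Tns2 and Drd4 lay 17 and 826 bp from a transcript start, and that in Sirt2 82 bp from one. Each of the 4 NPC sites was called in 2 or 3 ΔZF1 ESC libraries. In the mutant, 5 of 355 coding-exon sites were called in all ESC and no NPC libraries (1.41%), with 1.9% of all such sites, and they were in Frem2, Myh14, Fam184b, Lpar1 and Gucy2f. Lpar1, a lysophosphatidic acid receptor, had 10.6, 7.79, 6.33 and 5.12 in ΔZF1 ESCs. It was called in both E14 NPC libraries, at 8.47 and 9.17. The count was 11, 12 and 14 without ΔZF1 ESC replicate 2, 3 or 4 and 21 without ΔZF1 NPC replicate 4. Without ΔZF1 NPC replicate 3, 1 site was called in all mutant NPC and no mutant ESC libraries. All 5 sites listed held a motif.

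To test changes of rank, each library's fold enrichments were ranked, turned into normal scores and fitted by limma, over sites called in all 8 libraries of a comparison. In ESCs none of 293 coding-exon sites passed an adjusted p of 0.05 between ΔZF1 and WT, with 0.0386% of all sites called, and 28 of the 293 had an unadjusted p under 0.05, as did 435 of all 5188 sites. With the replicate number as a block, which the pairing check allows in ESCs, 1 coding-exon site passed, and 1 also did without ΔZF1 replicate 2 and without ΔZF1 replicate 3. Among all sites the block called 1 higher and 2 lower in ΔZF1, of 5188. The counts were 7 and 8 of 5531 without ΔZF1 replicate 2, and 0 and 5 of 6403 without ΔZF1 replicate 3. In NPCs none of 141 passed, with 0% of all sites called, and 7 had an unadjusted p under 0.05, as did 178 of all 2366 sites. Between WT NPCs and WT ESCs 1 of 357 passed, with 0.251% of all sites called.

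That site was in Wnk1, a kinase that regulates ion transport, in the first coding exon and 529 bp from a transcript start. Its enrichment was 8.94, 5.36, 5.08 and 4.45 in WT ESCs and 10.1, 18.1, 13.7 and 13.7 in WT NPCs, so these 2 WT groups did not overlap. On the scale of normal scores it was 2.55 ± 0.297 (SE) higher in WT NPCs than in WT ESCs (limma, adjusted p = 0.015). The mutant did not show the same split. Enrichment in ΔZF1 ESCs was 14.5, 10.8, 8.74 and 9.01, which overlapped WT NPCs. In ΔZF1 NPCs it was 11.3 and 19.1 in replicates 1 and 4, and replicates 2 and 3 did not call the site. No coding-exon site passed without WT ESC replicate 1 or without WT ESC replicate 3, while 3 passed without WT ESC replicate 4 and 4 without WT NPC replicate 3. Among all sites, 50 were higher and 4 lower in NPCs of 7153 without WT ESC replicate 4. Without WT NPC replicate 3, 62 were higher and 17 lower of 6125. The Wnk1 site had no motif, and it was called in no E14 NPC library and at 5.8 to 7.07 in 1 PodxlpA and 2 Grb10pA libraries.

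The strongest coding-exon sites were chosen for their rank over all libraries, so strength in every group follows from the choice. Among the 112 called in all 22 libraries, the 10 highest by median percentile were in Gdf15, 1500009C09Rik, Plekhg4, Adgra2, Gm16253, Spi1, Vwf, Zfp219, Itgbl1 and B4galnt1, and 9 of the 10 held a motif. Gdf15, a stress-induced cytokine, had a median percentile of 100, with a fold enrichment of 222 to 585 in WT ESCs, 204 to 543 in ΔZF1 ESCs, 138 to 492 in WT NPCs and 92.8 to 532 in ΔZF1 NPCs. These ranges overlapped. Spi1 encodes the blood cell factor PU.1, and the site in its last coding exon, 5 of 5, reached 72 to 202 in WT ESCs, 27.5 to 86.4 in ΔZF1 ESCs, 37.3 to 76.5 in WT NPCs and 16.7 to 37.9 in ΔZF1 NPCs, where its percentile was 95.3 to 98.3. All 14 Smc3 and all 8 Rad21 libraries had a peak over the Spi1 site, and 14 Smc3 and 3 Rad21 libraries did over the Gdf15 site. The sites in Plekhg4, Gm16253, Vwf and Itgbl1 were within 75, 222, 102 and 92 bp of the start of some annotated transcript of a coding gene.

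Some long genes held several sites of unequal strength. Sptbn4, which encodes βIV spectrin of the axon initial segment, had sites in coding exons 13, 15, 16 and 22 of 35, called in 22, 16, 20 and 2 libraries. Cacna1a, a calcium channel subunit, had 4 sites, of which that in the last coding exon, 47 of 47, was called in 22 libraries at a median percentile of 95.6. The others were called in 6, 4 and 10 libraries. Celsr3, a cadherin of axon guidance, had 4 motif-free sites called in 8, 3, 2 and 4 libraries. In Nbeal2 2 motif-bearing sites were called in 21 and 22 libraries, and a motif-free site in 3.

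Coding-exon sites were counted in gene families without a test between them. In all, 1736 of 21924 protein-coding genes did (7.92%). The counts were 21 of 56 clustered protocadherin genes (37.5%), 13 of 39 Hox genes (33.3%), 6 of 20 pluripotency genes (30%) and 5 of 16 mesoderm and endoderm genes. They were 8 of 38 other cadherin, 9 of 43 kinesin, 6 of 29 plexin and semaphorin, 5 of 24 neural progenitor and 2 of 11 laminin genes. The remaining lists were zinc finger (Zfp) genes, 34 of 397 (8.56%), collagen genes, 4 of 45, neuron genes, 1 of 16, and cohesin and loop factor genes, 1 of 19, the last in Maz. Gene length was not matched. Of the 21 protocadherin sites 3 held a motif. Of the 13 Hox sites 2 held a motif, and that in Hoxb3 was called in 18 libraries.

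Among developmental regulators, the site in the single coding exon of Neurog2, a proneural factor, was called in all 22 libraries at a median percentile of 94.1. Klf4, a pluripotency factor, and Hes1, a Notch target in neural progenitors, each had a motif-bearing site called in 21 libraries and missed in 1 ΔZF1 NPC library. The site in Pou5f1, which encodes Oct4, was called in 1 of 4 ESC libraries of either genotype. In NPCs all 4 WT libraries and 2 of the 4 mutant ones called it. Eomes, a regulator of mesoderm, had a site in its first coding exon that was called in all rescue libraries but 2, both of ΔZF1 NPCs.

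Rad21 was found at coding-exon sites less often than at other distal sites. Counted over the sites reproducible in the same group, Rad21 peaks overlapped 10.2% and 21.4% of 658 coding-exon sites in WT ESCs (replicates 1 and 2), against 17.7% and 45% of other distal sites. In ΔZF1 ESCs the values were 3.74% and 4.05% against 6.81% and 12%. They were 8.31% and 14.5% against 23.5% and 35.3% in WT NPCs, and 12.5% and 23.3% against 30.8% and 35.6% in ΔZF1 NPCs. The difference averaged -13.6 percentage points and was negative in 8 of 8 libraries (exact sign permutation p = 0.00781, the smallest that 8 libraries allow, adjusted 0.0625). The adjusted value misses 0.05, and both libraries of a group were scored on the same sites. Among motif-bearing sites the difference was -12.0 points, and in the top GC bin -16.5 points, each negative in 8 of 8 libraries. In the top fold enrichment bin it was -15.9 points.

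Smc3 was measured in 14 libraries, which include the E14, PodxlpA and Grb10pA NPCs that have no Rad21 library here, so the 2 means cover unlike sets. Coding-exon sites overlapped a Smc3 peak at 28.2% to 87.5% over 14 libraries, with a median of 49%, and other distal sites at 38.3% to 88.8%, with a median of 52.4%. Within the other distal sites the median was 47.5% in introns and 57.5% outside coding genes. The coding-exon median was not below that of introns, but medians over libraries do not pair the classes within a library. In WT ESCs the shares were 50% and 31.2% against 64.8% and 33.1% in introns. They were 48.6% and 45.3% against 61.7% and 45.7% in ΔZF1 ESCs, and 59.7% and 38.2% against 73.1% and 47.4% in WT NPCs. In ΔZF1 NPCs they were 82% and 87.5% against 86.1% and 85.7%, and in E14 NPCs 49.3% and 61.6% against 54.2% and 44.8%. The mean difference was -7.85 points (permutation of signs p = 0.0249, adjusted 0.0998, negative in 11 of 14). It was negative in all 8 rescue libraries and in replicate 1 of E14, PodxlpA and Grb10pA NPCs, and positive in replicate 2 of these 3. Among motif-bearing sites it was -2.20 points (permutation of signs p = 0.419), and among motif-free sites -9.55 points (permutation of signs p = 0.00563). In the top GC bin it was -14.5 points and negative in 14 of 14 libraries. The median share with Smc3 was 58.5% at motif-bearing and 27.7% at motif-free coding-exon sites.

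**Figure D5:**
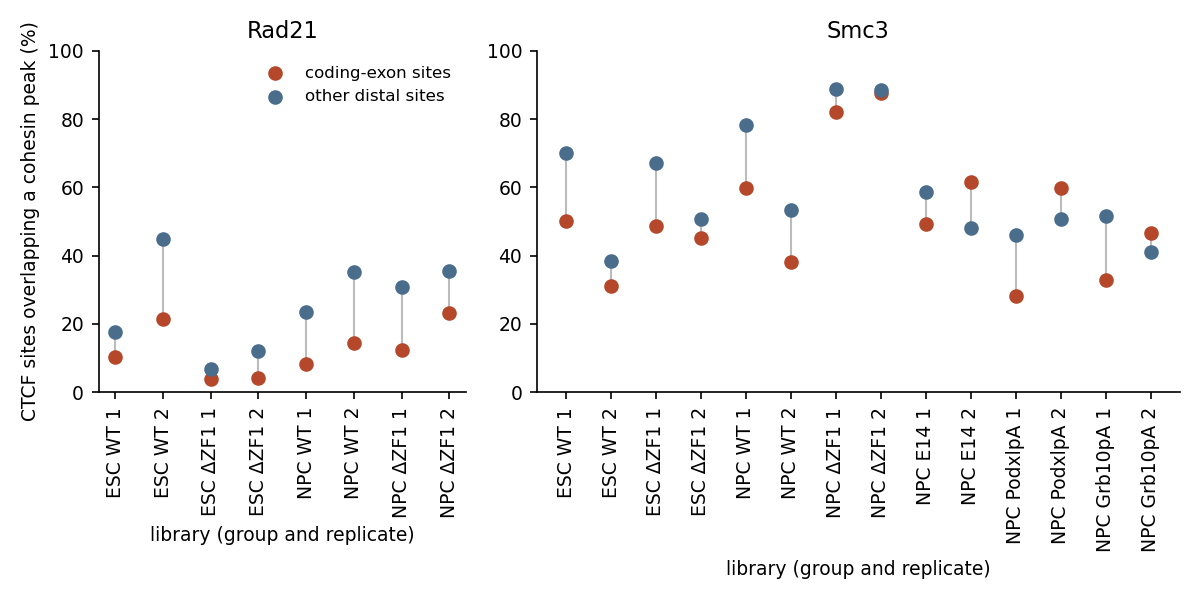
Percentage of CTCF sites reproducible in a group that overlapped a Rad21 (left) or Smc3 (right) peak (vertical axis), for coding-exon and other distal sites in each cohesin library (horizontal axis). Coding-exon sites lie below other distal sites in all 8 Rad21 libraries and in 11 of 14 Smc3 libraries.

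The polyadenylation lines were set beside parental NPCs. Of 497 coding-exon sites called in both E14 libraries, 367 (73.8%) were called in both PodxlpA and 444 (89.3%) in both Grb10pA libraries. The shares at other distal sites were 55.5% and 71.9%. In turn 16 of the 497 were in neither PodxlpA library and 18 in neither Grb10pA library, beside 1681 and 2024 of 18950 other distal sites. Neither Podxl nor Grb10 held a coding-exon site.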

How the data were processed

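CTCF, Rad21 and Smc3 peak lists of 44 samples were used, and 10 input samples without a list were not analysed here. The authors aligned reads to mm10 and ran the peak caller MACS2 sample by sample, and the submitters' processing notes also name Bowtie2, SAMtools, Picard, bedtools and deepTools. Per the deposited lists, each peak carries a fold enrichment, which is a ratio of ChIP signal to background, the −log10 of its p-value and q-value, and the offset of its summit. Read counts were not analysed, so depth is known only through the number of peaks. Positions were annotated with GENCODE M21 on GRCm38, and the motif was searched as the CTCF core consensus of 14 letters with ambiguity codes.

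Tests were exact permutations over libraries, permutations of signs (100000 resamples where there were over 10 libraries) and limma 3.58.1 in R 4.3.3 with Benjamini-Hochberg adjustment, the latter checked on simulated data. Python 3.11.15 with scipy 1.17.1 was used otherwise. Named sites were those that switched, those called by limma, the 10 highest by percentile, the genes with the most sites and up to 4 members of each gene list. The site set, the lists and the tests were chosen with earlier results of these data known.

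Rescue replicates 1 and 4 had median peak widths of 352 to 447 bp and replicates 2 and 3 of 190 to 301 bp, and each set was also analysed alone. The labels name no batch. Same-numbered ΔZF1 and WT ESC libraries deviated together from their group means, with every pair's correlation over sites between 0.11 and 0.33, so the numbers were taken as pairs there. In the other comparisons at least 1 pair was below 0.1. Alternatives covered a stricter q, merging by summits, transcript starts, equal peak numbers, stratification, the 2 sets of replicates and leaving out each library. Some named sites are not reported here.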

Additional observations from a re-analysis of the deposited data

Results flagged for a closer look

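In WT ESCs replicate 1 called 1330 of the 1896 coding-exon sites, while the other 3 libraries called 760, 643 and 678. The gap to the nearest library was larger than Dixon's test allows for 4 samples at the 95% level, which chance gives in about 1 of 20 groups. Several measures were looked at in this way in each rescue group, and only this one was flagged. This library also had the most peaks of its group, 43003.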

How the results depend on the processing

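The lists give no read depth, so a site missed in a short list could not be told apart from an unbound one. The alternatives with replicates 1 to 3 only, the motif split, GC strata and top bins were chosen after seeing the data. Causes of the changes were not tested. The log odds difference between ΔZF1 and WT NPCs was -0.0224 in replicates 2 and 3 alone. Its difference between cell types was 0.0607 when stratified by fold enrichment, 0.0663 with equal peak numbers and 0.0742 in replicates 1 and 4 alone, and -0.64 to 0.33 when 1 library was left out. The percentile difference was -0.0789 with the stricter q, -2.20 when merged by summits, -1.83 in sites of at least 4 libraries, 4.51 in motif-bearing sites and -2.61 to -1.86 without 1 library. The Smc3 difference was -2.20 in motif-bearing sites and -2.91 in the top fold enrichment bin. The Rad21 difference was negative in each of 14 alternatives, with unadjusted exact p of 0.00781 to 0.0156, the smallest that 8 or 7 libraries allow.

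Retained shares in ESCs were 86% with 2 of 4 libraries, 91.7% in replicates 1 and 4, 60.9% in replicates 2 and 3, 75.1% in replicates 1 to 3, and 51.4% to 91.1% without 1 library. Other distal sites had 69.8%, 75.6%, 46.8% and 66.6% in the first 4 settings. In NPCs they were 73.5%, 79.2%, 25% and 36.3% in that order, 71.7% with equal peak numbers, and 18.4% to 54.6% without 1 library, and other distal sites had 47.6%, 54.7%, 22.6%, 24.7% and 55.4%.

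Switched counts with equal peak numbers, in replicates 1 and 4, in replicates 2 and 3 and in replicates 1 to 3 were 1, 9, 66 and 7 for WT ESCs against ΔZF1, 2, 21, 276 and 90 for WT NPCs against ΔZF1, 1, 21, 24 and 16 for WT ESCs against NPCs, and 1, 60, 83 and 41 for ΔZF1 ESCs against NPCs. Without 1 library they ranged over 3 to 8, 9 to 51, 3 to 16 and 5 to 21. ΔZF1-only sites in ESCs numbered 3, 127 and 14 in the first 3 settings and 0 to 5 without 1 library, and in NPCs 82 in replicates 1 and 4. WT NPC-only sites numbered 1, 70 and 89 and 4 to 30 without 1 library. ΔZF1 NPC-only sites numbered 56 in replicates 1 and 4 and 0 to 1 without 1 library. All these switched counts stand without the share over all sites, which changes with the setting too.

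With the replicate number as a block, the log odds differences had exact p = 0.125 (ΔZF1 in ESCs, the smallest that 4 pairs allow), 0.5 (ΔZF1 in NPCs), 0.125 (cell type in WT), 0.125 (cell type in ΔZF1) and 0.625 (difference of effects). By limma the block gave 1 of 293 coding-exon sites in ESCs, 0 of 141 in NPCs and 18 of 357 between WT NPCs and ESCs, where the numbers do not pair the libraries. Quantile-normalized values gave 2 and 11 in ESCs and between cell types. Among all 5983 sites tested between cell types, the block called 129 higher and 43 lower in NPCs, and quantile-normalized values 116 and 33. Among all 5188 sites tested in ESCs, the block called 1 higher and 2 lower in ΔZF1, and quantile-normalized values 2 and 12. Between cell types 0 coding-exon sites passed with the stricter q, equal peak numbers, replicates 1 and 4, 2 and 3 or 1 to 3, and 0 to 4 without 1 library. In ESCs 0 to 1 coding-exon sites passed without 1 library.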
